A study of Mus musculus with 2 samples.

Results

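Immature neutrophils carrying transcripts of the specific granules were examined in mandibular first molars and the tissue around them at PN15.5. The cells were chosen by their own transcript levels. A cell counted when S100a8 plus S100a9 made up at least 2% of its unique molecular identifiers (UMIs, each the mark of 1 captured RNA molecule) and Camp, Ltf and Ngp together at least 1%. It also had to hold fewer than 10 UMIs over Mpo, Elane, Ctsg and Prtn3, and no more than 2% of its UMIs from Col1a1. A cell entered only if it had 200 genes or more and no more than 20% mitochondrial UMIs, which 17780 cells did. Of these, 450 met the rule, 335 of them in the Lipo-Clo library and 115 in the Lipo-PBS library.

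The study asked what macrophages do while the molar root forms, and removed them with clodronate, a drug that kills phagocytes which swallow the liposomes carrying it. C57BL/6J mice of both sexes received clodronate liposomes at 40 μg/g body weight (Lipo-Clo) or vehicle liposomes (Lipo-PBS) into the peritoneal cavity every 3 days from PN3.5 until PN12.5. The tooth and its surroundings were digested with Dispase and Collagenase I and run on the 10x Genomics platform, both libraries in the batch labelled 1. How many mice went into each library is not stated in the sources used here. Clodronate liposomes act on phagocytes throughout the body, and the injection was not limited to the tooth.

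The Lipo-Clo library held 9362 deposited cells and 31053404 UMIs, and the Lipo-PBS library 9653 cells and 30537834 UMIs, of which 8886 and 8894 cells passed the filter. With 1 library per condition no test between conditions was possible. Pairs of values below give Lipo-Clo first and Lipo-PBS second. All intervals are exact 95% intervals for counting error alone, and differences between animals are not in them. The libraries shared 30 cell barcodes, and 1 member in each library carried one. Without the cells that carried such barcodes, members were 3.77% and 1.29% of cells, as they were with them.

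Neutrophils are made in bone marrow, where they fill their granules in a fixed order. Progenitors and promyelocytes make the primary granule proteases, myelocytes and metamyelocytes then make the specific granule proteins, and band cells make the gelatinase granules before release into blood. Camp encodes the cathelicidin from which a pore-forming antimicrobial peptide is cut, Ltf the iron-binding protein lactoferrin, and Ngp the neutrophilic granule protein, a cystatin relative. S100a8 and S100a9 together form calprotectin, which binds zinc, manganese and calcium and is the most abundant protein of the neutrophil cytosol.

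Camp, Ngp and Ltf all lie on chromosome 9, and the 250 bases ahead of each start are shown because these genes define the cells. The sequences are RefSeq's on GRCm38.p6, which is not the build named in the submitters' processing notes (GRCm39), and are written 5′ to 3′ on the strand of the gene. The window of Camp is chr9:109849457-109849706 on the minus strand, that of Ngp chr9:110419558-110419807 on the plus strand, and that of Ltf chr9:111019042-111019291 on the plus strand. All are upstream sequence before the transcription start. Capitals mark matches to a core of C/EBP factors, which switch on granule genes, spelled TTNNGNAA, and to a core of PU.1, the myeloid master regulator, spelled GAGGAA.
Camp: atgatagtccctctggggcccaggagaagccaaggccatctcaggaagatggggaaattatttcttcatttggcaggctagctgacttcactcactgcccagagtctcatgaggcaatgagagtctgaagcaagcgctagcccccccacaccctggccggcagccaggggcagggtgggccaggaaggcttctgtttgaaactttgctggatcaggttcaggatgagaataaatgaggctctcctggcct
Ngp: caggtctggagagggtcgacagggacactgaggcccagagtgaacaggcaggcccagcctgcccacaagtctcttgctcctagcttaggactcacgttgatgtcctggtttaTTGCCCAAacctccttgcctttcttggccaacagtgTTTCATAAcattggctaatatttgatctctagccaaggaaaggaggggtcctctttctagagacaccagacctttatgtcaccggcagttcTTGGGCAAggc
Ltf: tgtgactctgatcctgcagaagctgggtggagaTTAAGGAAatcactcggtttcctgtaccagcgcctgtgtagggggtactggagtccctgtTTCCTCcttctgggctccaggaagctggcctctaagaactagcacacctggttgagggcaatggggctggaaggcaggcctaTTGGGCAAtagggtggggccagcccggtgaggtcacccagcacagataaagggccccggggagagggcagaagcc
Both strands were searched. The Ngp window held 3 C/EBP matches, starting 138, 102 and 11 bases before the transcription start. The Ltf window held 2, at 217 and 75 bases, and 1 PU.1 match at 157 bases, none of which overlapped. The Camp window held no match to either set of letters. Of 32851 mouse promoter windows of the same length, 36.9% held the C/EBP letters and 23.3% the PU.1 letters, so a match is common and describes the letters only. The letters TGTGGT of RUNX factors were in 14.1% of windows and in none of the 3 shown. Camp and Ngp start 570.4 kb apart with 8 protein-coding genes between them in RefSeq, and Ngp and Ltf 599.5 kb apart with 20 between.

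The values that chose the cells varied widely among them. Camp, Ltf and Ngp together made up 1.03% of UMIs in the lowest member of Lipo-Clo, 7.72% in the median member and 33.8% in the highest. In Lipo-PBS the same share was 1.02%, 7.74% and 21.2%. Camp alone made up 4.51% and 4.45% of the median member's UMIs, Ngp 2.37% and 2.58% and Ltf 0.251% and 0.246%, and 11 and 10 members held no Ltf UMI. S100a8 plus S100a9 ran from 5.74% through a median of 35.3% to 54.1% in Lipo-Clo, against 2.14%, 26.5% and 46.2% in the other library. So the median granule share was alike in the libraries, while the median S100 share was lower in Lipo-PBS.

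Near the thresholds, 31 members of Lipo-Clo and 21 of Lipo-PBS held 1 to 2% granule transcripts. Just outside, 26 and 12 cells that met every other condition held 0.5 to 1%. No member of Lipo-Clo and 8 of Lipo-PBS held under 4% S100 transcripts, and 8 and 1 members held 5 to 9 UMIs of the primary granule genes.

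Members held a median of 3216 UMIs and 809 genes in Lipo-Clo (523 to 13868 UMIs), and of 2319 UMIs and 829 genes in Lipo-PBS (612 to 10923 UMIs). Their UMIs summed to 1393050 and 364711. In these sums 3 UMIs, the limit that a count of 0 allows, correspond to 2.15 and 8.23 CPM, where CPM is a gene's UMIs scaled so that all genes sum to 1e+06. The floor was thus higher in Lipo-PBS, which had fewer and shallower members.

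The label was checked with genes the rule did not use, after each cell was thinned to 1000 UMIs, which left 323 and 108 members. Lcn2, the siderophore-binding lipocalin of specific granules, had a UMI in 97.5% and 92.6% of members. In cells with over 2% Col1a1, which should lack it, the share was 2.66% and 1.60%. Chil3, a chitinase-like protein of maturing neutrophils, was seen in 47.1% and 38.9% of members against 0.490% and 0.327% of the collagen-high cells. For Ly6g, the surface antigen that marks mouse neutrophils, the shares were 22.6% and 30.6% against 0.0701% and 0.164%. Mature neutrophils here are cells that met every condition but the granule threshold. In them, after thinning, the shares were 73.2% and 47.8% for Lcn2, 6.06% and 2.99% for Chil3 and 12.1% and 5.97% for Ly6g. Without thinning, Chil3 was seen in 70.7% and 65.2% of members.

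Cebpe, the transcription factor that drives specific granule genes, had a UMI in 8.05% and 10.2% of thinned members, and Itgb2l, a neutrophil integrin subunit, in 11.5% and 12.0%. Cd177, a neutrophil surface glycoprotein, was seen in 24.5% and 22.2%, and Mmp8, the collagenase of specific granules, in 35.6% and 42.6%. Csf3r, the receptor for G-CSF, was seen in 4.02% and 6.48%. Each of these shares was above the 0.0327% to 0.701% of collagen-high cells that held a UMI of the same gene. Mmp8 was seen in 41.4% and 41.8% of mature neutrophils, so it did not set members apart from them. The thinned median member carried 330 genes in Lipo-Clo and 408 in Lipo-PBS, compared with 634 and 639 genes in a collagen-high cell.

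Of the cells that passed the filter, 335 of 8886 in Lipo-Clo were immature neutrophils, a share of 3.77% (interval 3.38 to 4.19%). In Lipo-PBS they were 115 of 8894, or 1.29% (1.07 to 1.55%). The share was 2.92-fold higher in Lipo-Clo (interval 2.35 to 3.64), and the intervals of the libraries did not overlap. Progenitors, defined by 10 or more UMIs of the primary granule genes, were 1.24% and 0.236% of cells, 5.24-fold apart (3.27 to 8.81). Among them, 37 of 110 and 5 of 21 also met the S100 and granule thresholds. The median S100 share of the class was 3.16% and 0.0272%, so its make-up differed between the libraries. Of these progenitors, 4 of 110 and 7 of 21 (3.64% and 33.3%) were among the cells with the highest doublet scores, so the class is thinly based in Lipo-PBS. Mature neutrophils, which met every condition but the granule threshold, were 2.69% and 1.11%, 2.42-fold apart (1.90 to 3.09). Whether all cells of this class were neutrophils was not tested.

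Within the neutrophil lineage the immature share was the same to within counting error. Of 684 lineage cells under Lipo-Clo, 49.0% were immature (45.2 to 52.8%), and of 235 under Lipo-PBS, 48.9% (42.4 to 55.5%). Progenitors were 16.1% and 8.94% of the lineage, and mature cells 34.9% and 42.1%. When 500 genes and a limit of 10% mitochondrial UMIs were required of a cell, the immature share of the lineage was 50.5% and 60.2%. Mature cells were the shallowest of the lineage, with medians of 1976 and 1261 UMIs.

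**Figure D1:**
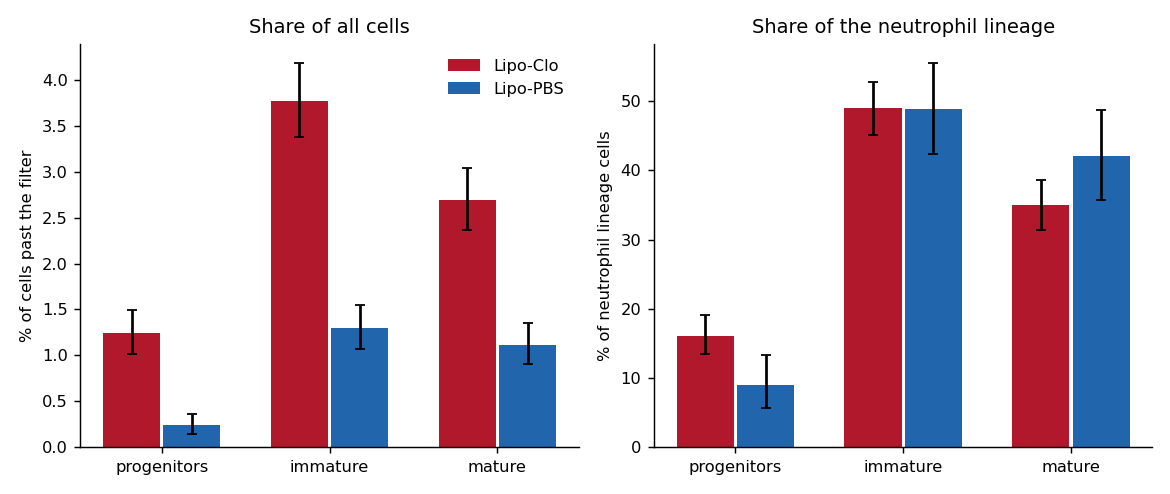
Share of progenitors, immature and mature neutrophils in each library, as % of cells past the filter (left) and as % of the neutrophil lineage (right), with bars for Lipo-Clo (red) and Lipo-PBS (blue) and exact 95% intervals as error bars. Immature cells are 3.77% against 1.29% of all cells and 49.0% against 48.9% of the lineage.

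A share is relative to what else was captured. B cells also sit in marrow. Cells with 10 or more UMIs of a B cell list were 9.33% and 7.96% of cells. Cells with 3 or more UMIs of the precursor B genes Rag1, Vpreb3, Dntt and Igll1 were 4.58% and 2.43%. There were 40.4 and 16.2 immature neutrophils per 100 cells of the B cell list. Per 100 cells of the precursor B genes there were 82.3 and 53.2. No check was made that these groups held B cells only, and their place in the tissue was not measured. The libraries thus also differed in cells with B cell and precursor B genes, by less than in immature neutrophils. Cells with over 10% globin UMIs were 8.55% and 15.4%, and cells with over 2% Col1a1 were 33.9% and 36.1%. Whether and how much marrow each dissection took is not stated in the sources used here, and its part in the shares was not tested. Cells with 3 or more UMIs of C1qa, C1qb and C1qc, complement genes of tissue macrophages, were 2.30% and 3.70%.

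Lipo-PBS members carried more globin and Col1a1 RNA. Globin genes took over 1% of UMIs in 14 of 335 Lipo-Clo members (4.18%) and in 36 of 115 Lipo-PBS members (31.3%). Col1a1 exceeded 0.1% of UMIs in 91 (27.2%) and 60 (52.2%) members. Before the Col1a1 limit was applied, 397 and 157 cells met the S100 and granule thresholds, and the limit took out 6.30% of the first and 23.6% of the second. The limit on primary granule UMIs ran the other way, and was reached by 9.3% and 3.2% of the same cells. The share of mitochondrial UMIs was also lower in Lipo-Clo members, with a median of 0.0865% against 0.471%, and this held for all cells of the libraries, at 0.368% against 1.74% of UMIs. A limit of 0.1% Col1a1 and 1% globin, chosen after the data were seen, left 236 members (2.66% of cells) and 46 members (0.517%), 5.14-fold apart. The 632 and 633 cells with the highest doublet scores included 17 and 10 members (5.08% and 8.70% of members).

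Across members, 3203 genes were detected in at least 10% of the cells of either library and were compared as CPM of the summed UMIs. A gene that only 1 library brought past this limit is, by that choice, apt to be higher in that library. Of these, 52 (1.62%) were at least 2-fold higher in Lipo-Clo and 504 (15.7%) at least 2-fold lower. The median gene had a log2 ratio of -0.33, so that a gene at 0 stood above the median. The same genes had medians of -0.20 in progenitors, 0.04 in mature neutrophils and 0.03 in collagen-high cells. S100a8 and S100a9 alone took 314826.5 CPM of Lipo-Clo members and 221257 CPM of Lipo-PBS members. With edgeR's TMM factors, which are less moved by such genes, every ratio was 0.54 higher, the median was 0.21, and the split became 280 higher and 147 lower. Ratios between -0.54 and 0 on the CPM scale therefore change sign with TMM. Below, each list is read against the median of -0.33 and the shares of 1.62% and 15.7%.

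**Figure D2:**
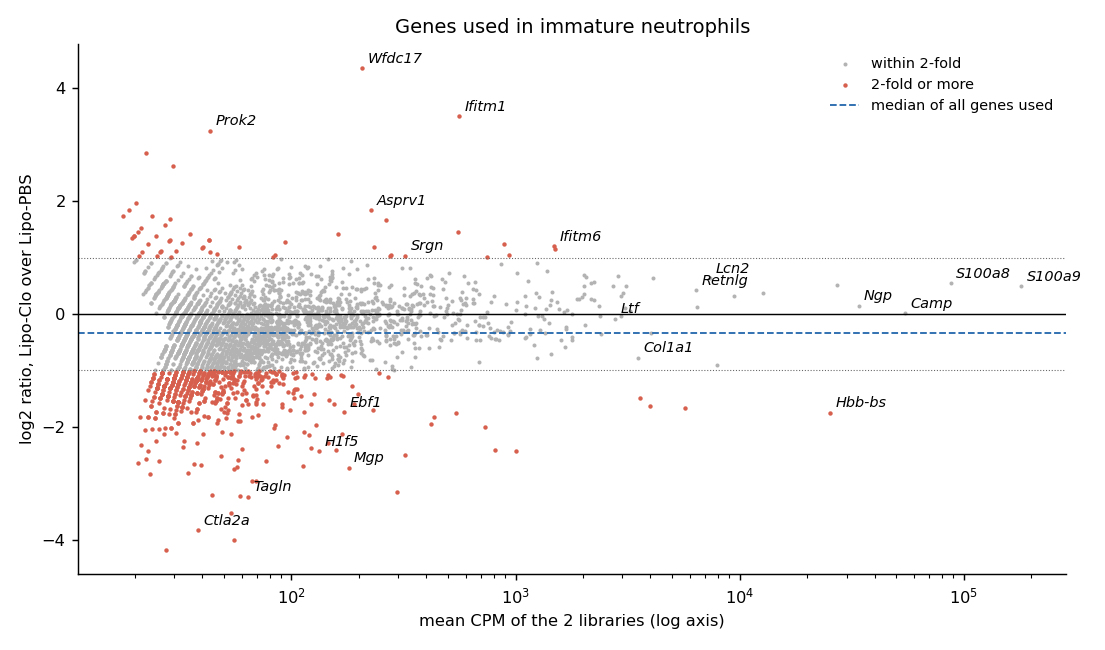
Each point is 1 of 3203 genes in immature neutrophils, with its mean CPM in the libraries (x, log axis) and its log2 ratio of Lipo-Clo over Lipo-PBS (y). Red points are 2-fold or more apart (52 higher, 504 lower), the dashed line is the median of -0.33, and Wfdc17, Ifitm1 and Prok2 lie highest.

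The specific granule genes that define the cells stood at like levels in the libraries. Camp was at 54719.5 and 54353 CPM, a log2 ratio of 0.01 (-0.01 to 0.03). Ngp was at 35649 and 32248 CPM, a log2 ratio of 0.14 (0.12 to 0.17), and Ltf at 2703 and 2863 CPM, a log2 ratio of -0.08 (-0.18 to 0.02). With TMM the 3 ratios were 0.55, 0.68 and 0.46, and without members over 0.1% Col1a1 or 1% globin they were -0.18, 0.11 and -0.44, so the sign for Camp and Ltf depends on the choice. S100a9 was at 210754 and 150067 CPM and S100a8 at 104072 and 71191 CPM, log2 ratios of 0.49 and 0.55 that were 1.03 and 1.09 with TMM and 0.20 and 0.25 without members over 0.1% Col1a1 or 1% globin. The levels of these 5 genes were used to choose the cells and are given as a description.

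RNA of the same genes outside neutrophils also differed. In collagen-high cells the log2 ratio was 0.61 for Camp, 0.74 for Ngp, 0.78 for Ltf, 1.22 for S100a9 and 1.30 for S100a8. A Camp UMI was found in 10.2% and 4.68% of thinned collagen-high cells.

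Of 28 genes on a list of specific granule proteins, 23 were compared. The 23 include Camp, Ltf and Ngp, whose levels chose the cells. Of the 20 others, 12 were higher and 8 lower in Lipo-Clo, 3 were 2-fold or more higher and none 2-fold lower, with a median log2 ratio of 0.32 against -0.33 for all genes. Lcn2 stood at 8983 and 5791 CPM, a log2 ratio of 0.63 (0.57 to 0.70), and was positive under all 13 alternatives (0.42 to 1.20). Hp, which binds free haemoglobin, stood at 996 and 496 CPM, a log2 ratio of 1.00. Orm1, an acute phase glycoprotein, stood at 110 and 54.8 CPM, also a log2 ratio of 1.00, and Lrg1 had 1.67, named after its value was seen. Over the alternatives the lowest ratio was 0.70 for Hp and 0.29 for Orm1, both under 2-fold. Lyz2, the lysozyme of myeloid cells, had a log2 ratio of 0.06 that was -0.12 without members over 0.1% Col1a1 or 1% globin, and Mmp8 one of -0.38.

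Cybb, the catalytic subunit of the NADPH oxidase that sits in specific granule membranes, was at 520.4 and 699 CPM, a log2 ratio of -0.43 that was 0.11 with TMM. Its partner Cyba was at 2569 and 1766 CPM, a log2 ratio of 0.54. Of 8 oxidase genes compared, 5 were higher and 3 lower and none reached 2-fold, including the cytosolic subunit Ncf4 (0.80) and the GTPase Rac2 (0.67). Without members over 0.1% Col1a1 or 1% globin, Cyba was at 0.35, Ncf4 at 0.31 and Rac2 at 0.43, and the list's sum went from 0.35 to 0.14.

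Genes that restrain proteases were also mostly higher. Of 13 protease inhibitor genes compared, 10 were higher, with a median of 0.32. Past 2-fold higher was 1 gene, Wfdc17, compared only because Lipo-Clo members held it. The list's sum of 0.36 was -0.07 without members over 0.1% Col1a1 or 1% globin. Stfa1, an intracellular stefin, was at 6756 and 6183 CPM (log2 ratio 0.13, and -0.49 without those members), and Wfdc21, a WAP domain protein, at 3163 and 2254 CPM (0.49). Anxa1, an anti-inflammatory annexin stored in neutrophils, was at 3285 and 2627 CPM (0.32). Without those members Wfdc21 was at 0.23 and Anxa1 at 0.17. Of 12 antibacterial and iron-handling genes, a list that shares 5 of the rule genes, 10 were higher, 6 of them among the 7 genes outside the rule, and Hp was past 2-fold.

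Primary granule transcripts were rare, as the rule required for the 4 genes it used. Of the other genes on the list, Ms4a3, a progenitor membrane protein, was at 61.0 and 24.7 CPM, compared with 791 and 396 CPM in progenitors. Fcnb, a ficolin of early granules, was at 56.7 and 57.6 CPM, a log2 ratio of -0.02 (-0.73 to 0.75). Srgn, the proteoglycan core that packs granule proteases, was at 433 and 211 CPM, a log2 ratio of 1.04 (0.69 to 1.40) that was 0.59, under 2-fold, without members over 0.1% Col1a1 or 1% globin. Of the 10 genes compared that the rule did not use, 3 were higher, 7 lower and 2, Srgn and Ms4a3, past 2-fold higher. Ms4a3 was compared only because Lipo-Clo members held it.

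The members formed a graded series by their granule transcripts. In Lipo-Clo, 59 members held 1 to 3%, 118 held 3 to 8% and 158 held 8% or more. The numbers were 27, 32 and 56 in Lipo-PBS. Bins made from a rule value are a description, but the other genes were not used in them. Chil3 went from 211 through 675 to 1807 CPM across the bins of Lipo-Clo and from 71.9 through 541 to 1554 CPM in Lipo-PBS. Hmgn2, a nucleosome-binding protein of dividing cells, went from 479 through 1253 to 2906 CPM and from 276 through 588 to 2802 CPM. Both genes thus followed the granule transcripts in both libraries.

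Cebpe went from 22.8 through 64.3 to 143 CPM in Lipo-Clo and from 23.98 through 47.0 to 107 CPM in Lipo-PBS. Fcnb was at 85.2 and 107 CPM in the highest bin, and in the lowest it had 1 UMI in Lipo-Clo and 0 in Lipo-PBS. The summed G2/M list, genes of dividing cells, was at 7743 and 7769 CPM in the highest bin and 3688 and 3381 CPM in the lowest.

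Retnlg, a resistin-like protein of gelatinase granules and late neutrophils, ran the other way. It went from 20667 through 10605 to 2114 CPM in Lipo-Clo and from 10204 through 10174 to 1376 CPM in Lipo-PBS. Mmp8 went from 975 through 551 to 196 CPM in Lipo-Clo, while in Lipo-PBS it was highest in the middle bin, at 468, 906 and 408 CPM. Mmp9, the gelatinase, showed the same shapes, at 649.8, 437 and 218 CPM and at 228, 553 and 229 CPM. The lowest Lipo-PBS bin rested on 27 cells, and S100a9 there was at 68455 CPM against 175275 CPM in Lipo-Clo.

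**Figure D3:**
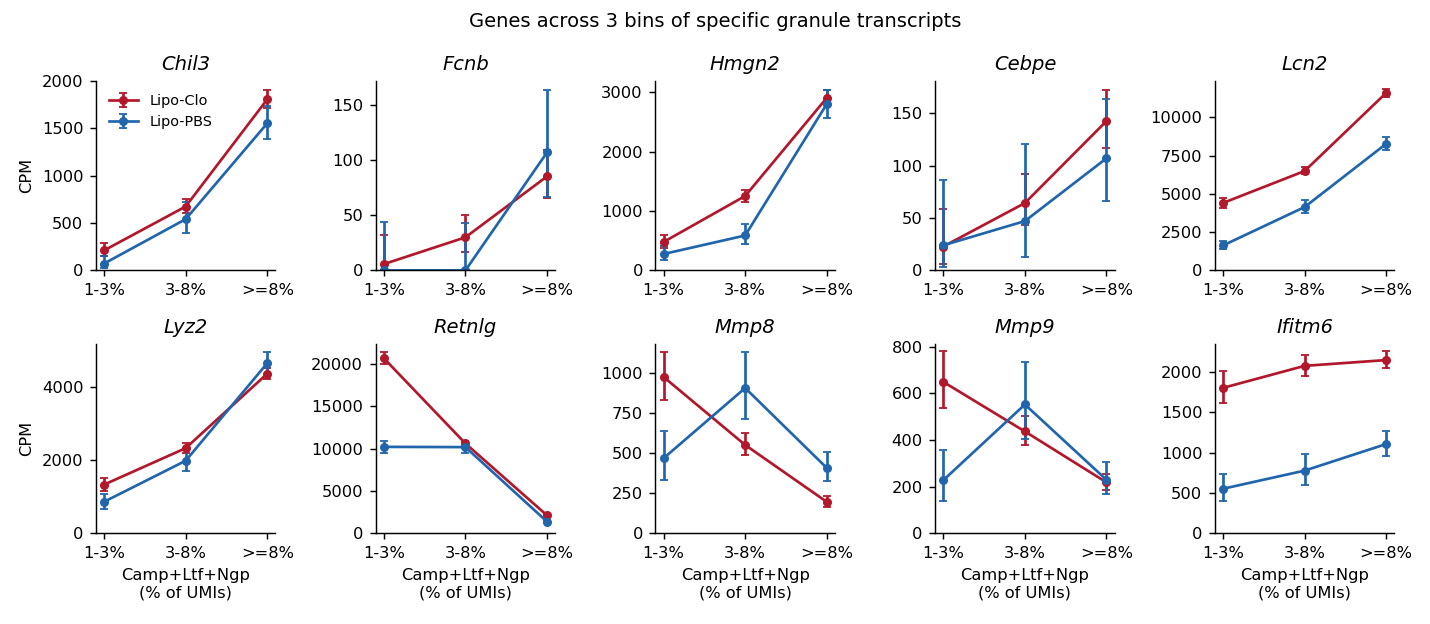
CPM of 10 genes (y, from 0) in members with 1 to 3%, 3 to 8% and 8% or more of UMIs from Camp, Ltf and Ngp (x), with lines for Lipo-Clo (red) and Lipo-PBS (blue) and exact 95% Poisson intervals. Chil3, Hmgn2, Cebpe, Lcn2 and Lyz2 increase across the bins in both libraries, Retnlg is lowest in the last, and Ifitm6 is higher in Lipo-Clo in all 3 bins.

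Across cells thinned to 1000 UMIs, correlations of Camp with Chil3 and Retnlg had the signs that the bins show for these genes. These are Spearman values over 323 Lipo-Clo and 108 Lipo-PBS members, whose cells share a library, and genes share a fixed total. Camp and Ngp, both in the rule, had 0.61 and 0.79, and Camp and Chil3 0.47 and 0.46. Camp with Retnlg gave -0.58 and -0.26, and Retnlg with a list of late neutrophil genes 0.65 and 0.65. Ngp with Lcn2 gave 0.66 and 0.64.

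Set beside the classes before and after them, members were highest in the specific granule list, on which the classes were cut, at 122450 and 111203 CPM. The gelatinase granule list stood lower in members than in mature cells, at 10896 and 8157 against 24131 and 20831 CPM. The primary granule list, whose leading genes separate progenitors by the rule, stood at 1712 and 1483 CPM in members and 24063 and 18901 CPM in progenitors. In mature cells it stood at 2916 and 2639 CPM, above the members. Among genes outside the rule, those with the largest fold over mature neutrophils in the pooled libraries, with 100 UMIs or more in either class and the same direction in both libraries, were Orm1, Chil3, Gca, Abca13, Cebpe, Itgb2l, Zmpste24, Serpinb1a, Fcnb and Cybb. Chil3 was at 1227 and 979 CPM in members against 92.6 and 15.8 CPM in mature cells, and Serpinb1a, an inhibitor of neutrophil elastase, at 196 and 167 against 35.5 and 15.8 CPM. Abca13, a lipid transporter of the specific granule stage, was at 97.6 and 178 against 15.4 and 10.5 CPM. The classes were cut by Camp, Ltf and Ngp, and no test was made.

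Genes with the largest fold under mature neutrophils were Ccl6, Il1b, Krt13, Wfdc17, Nlrp3, Gpha2, Acod1, Mt4, Amelx and Acta2. Il1b, the inflammatory cytokine, was at 63.2 and 32.9 CPM in members and at 980 and 1162 CPM in mature cells. Nlrp3, the inflammasome sensor, was at 18.7 and 24.7 against 202 and 384 CPM, and Acod1, which makes itaconate, at 27.3 and 10.97 against 239 and 310.2 CPM. Krt13, Mt4, Amelx and Acta2 are genes of epithelium, ameloblasts and smooth muscle. Cxcr2, the chemokine receptor that draws neutrophils into blood, was at 40.9 and 35.6 CPM in members against 97.2 and 131 CPM in mature cells. The epithelial list summed to 3243 and 2219 CPM in mature cells. It summed to 903 and 828 CPM in members and to 852 and 865 CPM in collagen-high cells. The mature class was set by the rule genes alone, and whether it held cells other than neutrophils was not tested. Contrasts with mature cells carry this limit.

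Compared with progenitors, Elane, the neutrophil elastase, was at 15.1 and 13.7 CPM in members against 6046 and 6135 CPM, by the rule. Ltf was at 209 and 38.6 CPM in progenitors, Mmp8 at 17.3 and 4.83 CPM, and Retnlg at 337 CPM in Lipo-Clo with no UMI in the 21 Lipo-PBS progenitors. These levels include the 37 and 5 progenitors that also met the S100 and granule thresholds.

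**Figure D4:**
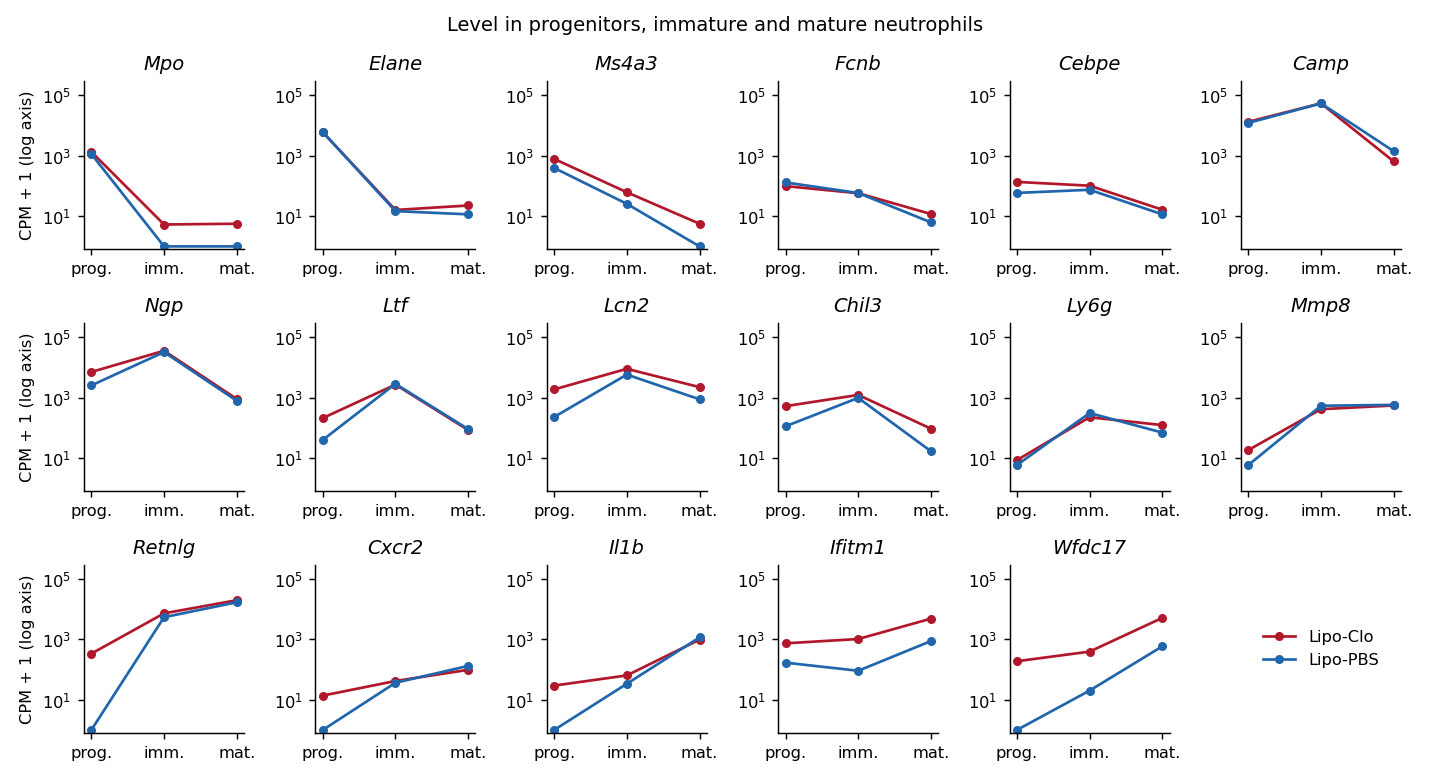
CPM plus 1 (y, log axis) of 17 genes in progenitors, immature and mature neutrophils (x) of Lipo-Clo (red) and Lipo-PBS (blue), as sums over cells with no error drawn. Camp, Ngp, Ltf, Lcn2 and Chil3 are highest in immature cells, Retnlg, Cxcr2 and Il1b in mature cells, and Ifitm1 and Wfdc17 are higher in Lipo-Clo in all 3 classes.

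The interferon-induced transmembrane genes were higher in Lipo-Clo members. Ifitm1 was at 1029 and 90.5 CPM, a log2 ratio of 3.51 (3.01 to 4.05). Ifitm6, a family member of myeloid cells, was at 2078 and 902 CPM, a log2 ratio of 1.20 (1.04 to 1.37). Ifitm2 was at 1266 and 611 CPM (1.05) and Ifitm3 at 1622 and 872 CPM (0.90). All 4 encode small membrane proteins that block virus entry, and each ratio was positive under all 13 alternatives, with 2.70 to 5.57 for Ifitm1 and 0.85 to 1.77 for Ifitm6. Without members over 0.1% Col1a1 or 1% globin, Ifitm6 was at 0.85, under 2-fold, and Ifitm3 at 0.55. Ifitm2 was under 2-fold, at 0.96, when mitochondrial, globin and ribosomal genes were left out of the totals.

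Of thinned members, 21.4% (17.0 to 26.2%) and 4.63% (1.52 to 10.5%) held an Ifitm1 UMI. In collagen-high cells the share was 5.29% and 6.12%, so the Lipo-PBS share was no higher than in cells of another type. Without thinning the members' shares were 34.03% and 11.3%. An Ifitm6 UMI was in 81.4% and 57.4% of members, and in 1.19% and 0.622% of collagen-high cells. Ifitm6 was higher in Lipo-Clo in each granule bin, with log2 ratios of 1.71, 1.42 and 0.96 from the lowest to the highest. The log2 ratios of Ifitm1 and Ifitm6 were 2.47 and 1.43 in mature neutrophils and 0.48 and 1.93 in collagen-high cells.

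Of 47 interferon genes in the file, 10 were detected widely enough to compare. Of these 8 were higher, 3 of them past 2-fold (Ifitm1, Ifitm2 and Ifitm6), and 2 were past 2-fold lower. Isg15, a ubiquitin-like protein that type I interferon induces, was at 43.8 and 137 CPM, a log2 ratio of -1.65, and Irf1 had -1.01; both were named after their values were seen. Ifit1, Ifit3 and Cxcl10 had 0 to 7 UMIs in either library. The list as a sum had a log2 ratio of 1.05 in immature neutrophils, 1.26 in mature ones, 0.53 in progenitors and 0.22 in collagen-high cells, and the 4 Ifitm genes held most of its UMIs.

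Wfdc17, a WAP domain protein of activated myeloid cells, had the highest ratio of the 3203 genes compared. It was at 393 and 19.2 CPM, a log2 ratio of 4.36 (3.31 to 5.68) from 548 and 7 UMIs. In mature cells it was at 5165 and 589 CPM, a log2 ratio of 3.13. A UMI was in 50 of 323 and 2 of 108 thinned members, against 46 of 2855 and 43 of 3055 collagen-high cells. Prok2, a secreted prokineticin that neutrophils make, was at 78.2 and 8.23 CPM (log2 ratio 3.25, 1.67 to 5.55, from 109 and 3 UMIs), and in mature cells at 182 and 15.8 CPM. Without thinning, Wfdc17 and Prok2 each had a UMI in 2.61% of Lipo-PBS members, so both were compared only because Lipo-Clo members held them.

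Other genes among those with the highest ratios rested on 3 or 4 UMIs in Lipo-PBS and likewise were compared only because Lipo-Clo members held them. They were Napsa (2.63, 1.03 to 4.94), Fdps (1.97, 0.33 to 4.30), Aldh3b1 (1.84, 0.19 to 4.18), Cfp (1.74, 0.29 to 3.67) and Dpcd (1.73, 0.07 to 4.07). Asprv1, a protease known from skin and neutrophils, was at 354 and 98.7 CPM (log2 ratio 1.84, 1.35 to 2.37), with a UMI in 26.6% and 9.26% of thinned members. Cfp encodes properdin, the stabiliser of the complement convertase.

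Genes of late neutrophils leaned the same way. Of 23 compared, 16 were higher and 4 past 2-fold higher (Wfdc17, Cxcl2, Sod2 and Srgn), with a median of 0.64 against -0.33. Among these, Wfdc17 was compared only because Lipo-Clo members held it. Fth1, the ferritin heavy chain, was at 5011 and 3214 CPM (log2 ratio 0.64), and Tyrobp, an adaptor of activating receptors, at 2503 and 1557 CPM (0.69, and 0.38 without members over 0.1% Col1a1 or 1% globin). Slpi, a secreted inhibitor of elastase, was at 1114 and 603 CPM (0.89). The sum of the list had a log2 ratio of 0.63 (0.44 to 1.19 over the alternatives), compared with 0.20 in mature neutrophils and 0.04 in collagen-high cells. It was 0.97, 0.42 and 0.69 in the 3 granule bins.

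Chemokines and cytokines were few, with 6 genes compared and all 6 higher. Cxcl2, which attracts neutrophils through Cxcr2, was at 806 and 296 CPM, a log2 ratio of 1.45 (1.16 to 1.74), and was the only one past 2-fold. Il1b had 88 and 12 UMIs (log2 ratio 0.94, 0.06 to 1.95) and Tnf 79 and 12 UMIs (0.79, -0.10 to 1.80). Il1b was at 0.46 without members over 0.1% Col1a1 or 1% globin. No Il1b UMI was in 298 of 335 and 108 of 115 unthinned members, so Il1b was compared only because Lipo-Clo members held it. A Cxcl2 UMI was in 110 of 323 and 14 of 108 thinned members and in 2.87% and 4.81% of collagen-high cells.

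Among receptors, 16 of 24 compared were higher and 5 past 2-fold higher, with a median of 0.22. Clec4e, a C-type lectin for microbial glycolipids, was at 370.4 and 181 CPM (log2 ratio 1.03), and Pirb, an inhibitory receptor for MHC class I, at 235 and 87.7 CPM (1.42). Both were under 2-fold in some alternatives, Clec4e at 0.75 without members over 1% globin and Pirb at 0.87 without members over 0.1% Col1a1 or 1% globin. The other 3 were Ptafr, Siglece and Cd14, named after their values were seen. Fpr1, which senses bacterial formyl peptides, was at 277 and 249.5 CPM (0.15). Ly6g was lower, at 223 and 307 CPM (-0.46, -0.78 to -0.14), and was 0.08 with TMM. Cxcr2 at 0.20 (-0.69 to 1.19) and Csf3r at -0.23 (-1.08 to 0.72) had intervals on both sides of 0.

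Of gelatinase granule genes, 11 of 13 were higher and 2 past 2-fold (Hp and Cfp), with a median of 0.21. Cfp was compared only because Lipo-Clo members held it. Retnlg was at 7296 and 5445 CPM, a log2 ratio of 0.42 (0.35 to 0.49), and Mmp9 at 346 and 304 CPM, one of 0.18 (-0.11 to 0.50). Without members over 0.1% Col1a1 or 1% globin these were -0.15 and -0.50, and the list's sum went from 0.42 to -0.06.

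In lipid mediator synthesis, Alox5ap, the protein that presents arachidonic acid to lipoxygenase, was at 2071 and 929.5 CPM, a log2 ratio of 1.16 (0.99 to 1.32) that was 0.78, under 2-fold, without members over 0.1% Col1a1 or 1% globin. Lta4h, which makes leukotriene B, was at 107 and 173 CPM (-0.69, -1.13 to -0.24), and Alox5 itself had only 41 and 14 UMIs. Of the 4 eicosanoid genes compared, 2 were higher and 2 lower, with a median of 0.13. Alox5ap had a ratio of 0.98 in collagen-high cells too.

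Of 20 glycolysis and glycogen genes, 15 were higher, with a median of 0.35 and 1 past 2-fold higher (G6pdx, named after its value was seen). Gapdh was at 1267 and 762.2 CPM (0.73), Pkm at 327 and 228 CPM (0.52) and Ldha at 293 and 206 CPM (0.51). Pkm was at 0.20 without members over 0.1% Col1a1 or 1% globin. Of 63 nuclear genes of the respiratory chain, 31 were higher and 32 lower, with Atp5mc2 past 2-fold higher. Of all genes compared, 28.2% were higher.

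Of 18 transcription factors, 5 were higher and 13 lower, with a median of -0.18 and 2 past 2-fold lower. Cebpb, which supports emergency granulopoiesis, was at 512 and 318 CPM (log2 ratio 0.69, 0.40 to 0.98). Cebpe was at 101 and 74.0 CPM (0.45, -0.15 to 1.10). Fos and Jund, immediate early genes that also answer to tissue digestion, had -0.76 and -0.31, the second of which was 0.23 with TMM. Klf4 and Runx1, named after their values were seen, were the 2 past 2-fold, with -1.65 from 34 and 28 UMIs and -1.57 from 49 and 38 UMIs. Klf4 was at -0.86, Cebpe at 0.27 and Jund at 0.38 without members over 0.1% Col1a1 or 1% globin. Of 23 digestion stress genes 20 were lower, with a median of -0.45 and 3 past 2-fold; their sum had a log2 ratio of -0.37 on the CPM scale and 0.17 with TMM.

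**Figure D5:**
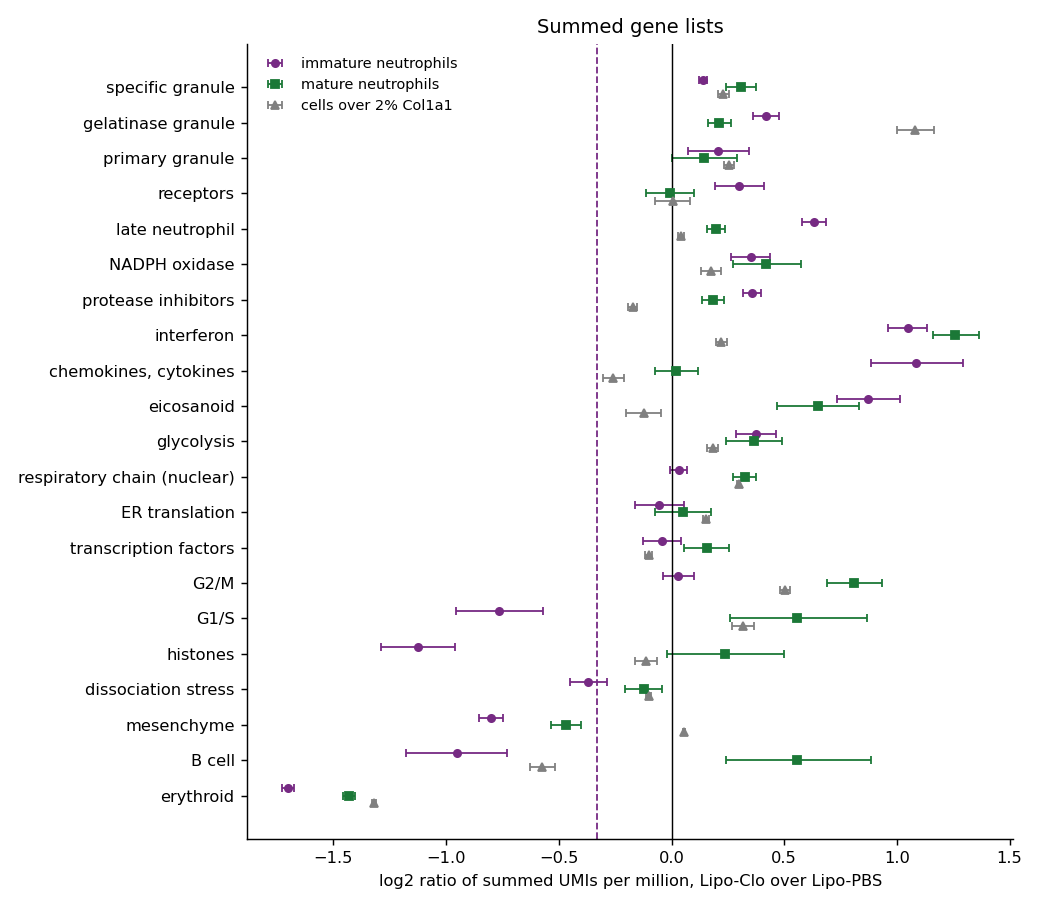
Log2 ratio of summed CPM, Lipo-Clo over Lipo-PBS (x), for 21 gene lists (y) in immature neutrophils (purple), mature neutrophils (green) and cells over 2% Col1a1 (grey), with exact 95% intervals for counting error; the dashed line is the median gene of immature neutrophils, -0.33. Of the lists drawn, the interferon list is at 1.05 and 1.26 in immature and mature cells and 0.22 in collagen-high cells, and the erythroid list is lowest in all 3.

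Some members carried transcripts of dividing cells. At 1000 UMIs, Mki67 or Top2a had a UMI in 28 of 323 and 7 of 108 members, or 8.67% (5.84 to 12.3%) and 6.48% (2.65 to 12.9%). There was one in 19.4% of Lipo-Clo progenitors and 2 of 20 in Lipo-PBS, in 5.05% and 2.99% of mature cells, and in 4.48% and 3.44% of collagen-high cells. The members' intervals overlapped those of the mature cells. Without thinning the shares were 20.3% and 17.4%.

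A UMI of any G2/M gene was found in 84.5% and 85.2% of members and in 82.7% and 79.4% of collagen-high cells, so it did not set them apart. With 5 or more such UMIs the shares were 31.0% and 30.6% of members, 106 of 108 and 14 of 20 progenitors, and 15.4% and 10.7% of collagen-high cells. In mature cells they were 22.2% (16.6 to 28.7%) and 10.4% (4.30 to 20.4%), and the first of these intervals overlapped that of Lipo-Clo members (26.0 to 36.3%). H2az1 and Hmgb2, chromatin proteins on that list, were its most abundant genes, at 2472 and 2240 CPM and at 1271 and 1174 CPM. Any G1/S gene had a UMI in 23.2% and 28.7% of members, 26.3% and 25.4% of mature cells and 36.1% and 34.7% of collagen-high cells. The members' shares were below those of collagen-high cells, and their intervals overlapped those of mature cells. At 3 or more such UMIs the members' shares were 3.72% and 7.41%. The members' intervals overlapped between the libraries in each of these shares.

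The 5 G1/S genes compared were all lower, with a median of -0.61, and Pcna, the DNA clamp, was at 53.1 and 90.5 CPM (-0.77, -1.38 to -0.13). Of 6 histone genes all were lower and 5 past 2-fold lower, with a summed log2 ratio of -1.12. That ratio was 0.19 once members over 0.1% Col1a1 or 1% globin were left out, which left 46 members in Lipo-PBS. It was negative in 12 of 13 alternatives, so its direction depended on this one choice, and the cause was not tested. The G1/S sum of -0.77 was -0.69 without those members and -0.23 with TMM.

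Several of the largest negative ratios were of genes known from other cell types. Ctla2a (-3.83), Cxcl14 (-3.52), Tagln (-3.24), Aqp1 (-3.22), Man1a (-3.21), Acta2 (-2.97), Mt2 (-2.97), Bpgm (-2.81), Fxyd3 (-2.74) and Mgp (-2.72) were the lowest by the naming rule. Tagln and Acta2 are smooth muscle genes, Mgp is a matrix protein that keeps cartilage and vessels free of mineral, and Bpgm is a red cell enzyme. Mgp rested on 66 and 114 UMIs, the others on 7 to 22 UMIs in Lipo-Clo. With so few UMIs there, those others were compared only because Lipo-PBS members held them. The log2 ratio of Mgp in collagen-high cells was -1.34, and that of Tagln -0.17. Amelx, the enamel matrix gene of ameloblasts, ran the other way, with 52 and 1 UMIs in members (37.3 and 2.74 CPM, log2 ratio 3.77, 1.23 to 9.10). A UMI of it was in 3.28% and 0.870% of members, too few for it to be among the 3203 genes compared, and its log2 ratio was 3.21 in mature neutrophils and 1.11 in collagen-high cells.

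All 9 erythroid genes compared were past 2-fold lower in Lipo-Clo members, against a background of 15.7%. Hbb-bs, an adult beta-globin and the most abundant gene of the list, was at 11588 and 39017 CPM (log2 ratio -1.75, and -0.87 without members over 0.1% Col1a1 or 1% globin). The list summed to 18338 and 59645 CPM, and in collagen-high cells to 17249 and 43073 CPM, a log2 ratio of -1.32. Red cell RNA was thus lower in Lipo-Clo in cells of both kinds. Of 12 mesenchyme genes outside the rule all were lower and 6 past 2-fold lower, and Col1a1, the most abundant gene of that list, was at 2599 and 4447 CPM although the rule capped it.

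Markers of the remaining cell types were scarce. The macrophage list summed to 123 and 170 CPM, with Apoe its most abundant gene at 35.9 and 74.0 CPM, 3 and 2 of its 14 genes at 0, and C1qa at 17 and 2 UMIs. The direction of its log2 ratio depended on the choices made, at -0.46 on the CPM scale, 0.08 with TMM and 1.33 without members over 0.1% Col1a1 or 1% globin. A UMI of C1qa, C1qb or C1qc was in 1.55% and 1.85% of thinned members, against 1.26% and 2.91% of collagen-high cells. The B cell list summed to 351 and 680 CPM, with Cd74 most abundant, the T and NK list to 51.0 and 126 CPM with Cd3d, and the endothelial list to 68.2 and 274 CPM with Pecam1. Megakaryocyte and eosinophil, basophil and mast cell lists had no gene detected widely enough to compare, and the osteoclast and epithelial lists had 2 and 4, none past 2-fold. The monocyte list summed to 568 and 455 CPM, led by Ly6c2 (log2 ratio 0.82), which neutrophils also express. The other 2 monocyte genes compared were lower, Fn1 at -0.54 and Klf4 past 2-fold, and the median of the 3 was -0.54. The dendritic list summed to 1134 and 839 CPM, led by Cst3. The epithelial list, led by Odam, summed to 903 and 828 CPM, a log2 ratio of 0.13 (-0.06 to 0.31) that ran from -0.52 to 2.89 over the alternatives. Of the lists of other cell types, the dendritic sum, with 1 gene compared, was thus higher in Lipo-Clo on the CPM scale, as was the monocyte sum through Ly6c2, and the B cell, T and NK, endothelial, erythroid and mesenchyme sums lower. The part of this RNA in the differences between libraries was not tested beyond the counts without the members that carried the most globin and Col1a1.

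The mice were of both sexes. Xist, the RNA that silences one X chromosome in female cells, had a UMI in 13.9% and 15.7% of thinned collagen-high cells, and the Y-linked genes Ddx3y, Eif2s3y, Kdm5d or Uty in 6.02% and 8.58%, so both libraries held RNA of both sexes. In members the Y-linked genes were seen in 4.64% and 4.63%, and Xist in 3.41% (1.71 to 6.01%) and 8.33% (3.88 to 15.2%).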

How the data were processed

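UMI counts per gene and cell were taken as the authors deposited them: reads of the Lipo-Clo and Lipo-PBS libraries had been counted with Cell Ranger, version 3.1.0 and build GRCm39 per the submitters' processing notes, while the header of the deposited matrix names Cell Ranger 8.0.0. Seurat 3.1.1, also in those notes, made no value used here. Counts were analysed unnormalised in Python 3.11.15 with NumPy 2.4.6, SciPy 1.17.1 and pandas 2.3.3. Genes were compared where 10% or more of the members of either library held a UMI, as CPM of summed UMIs, with exact 95% intervals, and for shares exact Clopper-Pearson intervals, of counting error only. A 2-fold difference counted as called. TMM (edgeR 4.0.16) and DESeq2 1.42.0 size factors served as other scalings. Cells were thinned at random to 1000 UMIs for shares. Doublet scores came from Scanpy 1.11.5. Its automatic threshold called 0 and 1 cells, so no member was removed in the main values, and the 632 and 633 highest scores were left out as an alternative.

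The genes named were the rule genes, the 4 most abundant of each list, the 10 with the largest ratio in each direction among those with 30 UMIs or more, and the 10 furthest over and under mature neutrophils; others were chosen after their values were seen, and some named by this rule are not reported here. Members and lists were chosen with earlier results of these data known. The steps were checked on simulated counts.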

Additional observations from a re-analysis of the deposited data

Results flagged for a closer look

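For 8 named genes and 3 lists the log2 ratio of Lipo-Clo over Lipo-PBS had one sign in immature and the other in mature neutrophils, with both counting intervals clear of 0. Camp, Ltf, Ngp, S100a8 and S100a9, singly and summed, were left out of this count because their levels set the classes. Camp, Ltf and Ngp together stood at 0.06 in immature and -0.49 in mature cells. The difference between the classes was not tested. Slpi stood at 0.89 in immature and -0.35 in mature cells, Srgn at 1.04 and -0.24, Il1b at 0.94 and -0.24, and Cst3, a cystatin, at 0.56 and -0.88. Stfa1 stood at 0.13 and -0.32. In the other direction, Tipin, a replication fork protein, stood at -0.76 and 1.69, the histone gene H2ac8 at -1.14 and 0.75, and Acta2 at -2.97 and 0.71. Of the lists, the G1/S list stood at -0.77 and 0.56, the B cell list at -0.95 and 0.56, and the dendritic list, led by Cst3, at 0.43 and -0.58. Without members over 0.1% Col1a1 or 1% globin, H2ac8 was at 0.56 and Stfa1 at -0.49 in immature cells. Tipin was at 0.54 there after thinning, and the dendritic list at -0.37 with a granule limit of 5%, so for these too the opposite signs depended on the choice.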

How the results depend on the processing

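No paired analysis was possible because there was 1 library per condition, which also means that none could be left out. The share of immature neutrophils was higher in Lipo-Clo under every limit tried. It was 1.06% in Lipo-PBS with a granule limit of 2%, and 2.56% and 0.821% with 5%. With Col1a1 at most 0.5% it was 3.35% and 0.967%, and with no Col1a1 limit 1.71% in Lipo-PBS. Out of cells other than those over 2% Col1a1 it was 5.71% and 2.02%, and after thinning 4.37% in Lipo-Clo. With cells over 0.1% Col1a1 or 1% globin not counted, a limit chosen after seeing the data, it was 2.66% and 0.517%, 5.14-fold apart. The share of the lineage was 60.2% in Lipo-PBS with 500 genes required, 44.4% and 40.0% with a granule limit of 2%, and 53.6% in Lipo-Clo after thinning.

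Shares with cycling genes moved with depth. At 500 UMIs a Mki67 or Top2a UMI was in 3.88% and 2.61% of members and unthinned in 20.3% and 17.4%. For 5 UMIs of the G2/M list the shares were 16.1% and 13.9%, and 67.5% and 60.0%, and for 3 of the G1/S list 0.597% (0.0724 to 2.14%) and 5.22% (1.94 to 11.01%) at 500 UMIs, and 18.5% and 23.5% unthinned.

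The count of genes past 2-fold depended on scaling and choice of genes. It was 280 higher and 147 lower with TMM, 297 and 136 with DESeq2's size factors, 102 and 306 without the 5 rule genes in the totals, 186 and 1038 over all genes with 20 UMIs, and 190 and 1106 at 1.5-fold. The higher count was 219 after thinning, 115 with a granule limit of 5% and 160 without members over 0.1% Col1a1 or 1% globin. Of calls, 9.35% were higher in the main values, 65.6% with TMM and 68.6% with DESeq2's size factors. Of 2444 values for 191 named genes and lists under 13 alternatives, 2227 kept their direction. Those called in the main values that changed sign were Igkc (0.004 as the mean of scaled cells, 1.59 after thinning, 0.69 without members over 1% globin), Flt1 (0.59 after thinning), C1qa, Nkg7 and the T and NK list (-2.07, 1.74 and 0.57 with a granule limit of 5%) and Egfl7 and Krt13 (0.10 and 0.18 without members over 1% globin). Without members over 0.1% Col1a1 or 1% globin, Egfl7 (0.72), Apoe (1.14), Cdh5 (0.14), H2ac8 (0.56) and the histone list (0.19) did. The causes were not tested. Of 23 named genes past 2-fold higher, 10 were so in every alternative that gave a value, and of 34 lower, 15.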

Other observations

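Of 15 genes of secretory protein synthesis, 6 were higher and 9 lower in Lipo-Clo members, with a median log2 ratio of -0.04 against -0.33 for all genes compared, and Ncl, a nucleolar protein, was past 2-fold lower. Ncl was named after its value was seen.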
